A study of Mus musculus with 16 samples.

Results

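The 10 genes described here are Spp1, Trem2, Gpnmb, Apoe, C1qa, C1qb, C1qc, Csf1r, Csf1 and Il34, which are often read together in tumors as genes of lipid-loaded and complement-expressing macrophages and of the receptor and ligands that maintain these cells. They were chosen by name out of the 22298 genes counted, and all 10 were among the 16817 genes with enough reads to be tested. The tumors came from 615-line mice, 6 weeks old, that had received 500000 MFC cells (mouse forestomach carcinoma cells, a gastric cancer line) into the abdomen. The mice were of wild-type genotype, and both groups carried the same tumor cells. The vehicle group received PBS, and the IL-33 treatment group received the cytokine IL-33 at 20 μg/kg every 2 days, also into the abdomen. RNA from 8 abdominal tumors of each group was sequenced, and the number of reads on each gene was counted. As whole tumor tissue was used, fewer cells of one type and less RNA per cell cannot be told apart in any value given here.

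Macrophages depend on signals through the CSF1 receptor (Csf1r), a receptor tyrosine kinase with the separate ligands CSF1 and IL-34. Macrophages in tumors often carry genes of lipid uptake and export. Examples are Trem2, a surface receptor for lipids and lipoproteins, and Apoe, which encodes a protein of lipoprotein particles. Often carried with them are the C1q genes, which encode the chains of the recognition molecule of the classical complement pathway. Spp1 encodes osteopontin, a secreted ligand of integrins and CD44, and Gpnmb encodes a transmembrane glycoprotein of lysosomes and melanosomes. Both are used as markers of a class of tumor macrophages, but tumor cells of many kinds can express them too.

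Vehicle tumors had total counts of 14139268 to 24290794 and IL-33 tumors of 16569613 to 24288893, and levels are given relative to this total (CPM). The closest libraries, IL-33 replicates 4 and 8, still differed well beyond sampling noise (chi-square over its degrees of freedom 8.79), so no library was counted as a copy of another. A pair of libraries stood apart from the rest. IL-33 replicate 7 had the highest TMM scaling factor of edgeR (1.24) and held 1235 CPM of 6 uterus and oviduct genes and 528 CPM of 6 ovary genes, against at most 4.70 and 1.06 CPM in the other 15 tumors. Vehicle replicate 4 had the lowest factor (0.64). Results are therefore given with and without IL-33 replicate 7, and vehicle replicate 4 is named where it sets a value. The labels do not say that the tumors of a group came from separate animals, so p-values measure the spread between these samples, which may be technical.

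None of the 10 genes differed between the groups by more than the spread between tumors. In edgeR's quasi-likelihood test, 0 of the 10 had an adjusted p under 0.05, as did 0% of all genes tested (smallest adjusted p 0.418), and by the unadjusted p under 0.05 it was again 0 of the 10, where 11.2% of all genes passed (9.99% with a higher and 1.17% with a lower level after IL-33). DESeq2 also gave 0 adjusted calls over all genes and 691 at an unadjusted p under 0.05. Without IL-33 replicate 7 the background shares were 0% by adjusted p and 4.12% by unadjusted p (1.83% higher and 2.29% lower), and again 0 of the 10 genes passed by either p in edgeR. DESeq2 without that tumor gave 1 adjusted call over all genes (Alas2, named after its value was seen), and of the 10 genes 1 had an unadjusted p under 0.05, Trem2 (log2 fold change -1.02, unadjusted p = 0.0354, adjusted p = 0.993). The median log2 fold change, IL-33 over vehicle, was -0.03 over the 10 genes and 0.06 over all genes tested, and -0.07 and -0.01 without IL-33 replicate 7. The 95% intervals still allowed sizeable changes. They were narrowest for Csf1 and Csf1r, from 0.715- to 1.43-fold and from 0.815- to 1.66-fold, and widest for Trem2, from 0.312- to 1.41-fold.

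**Figure D1:**
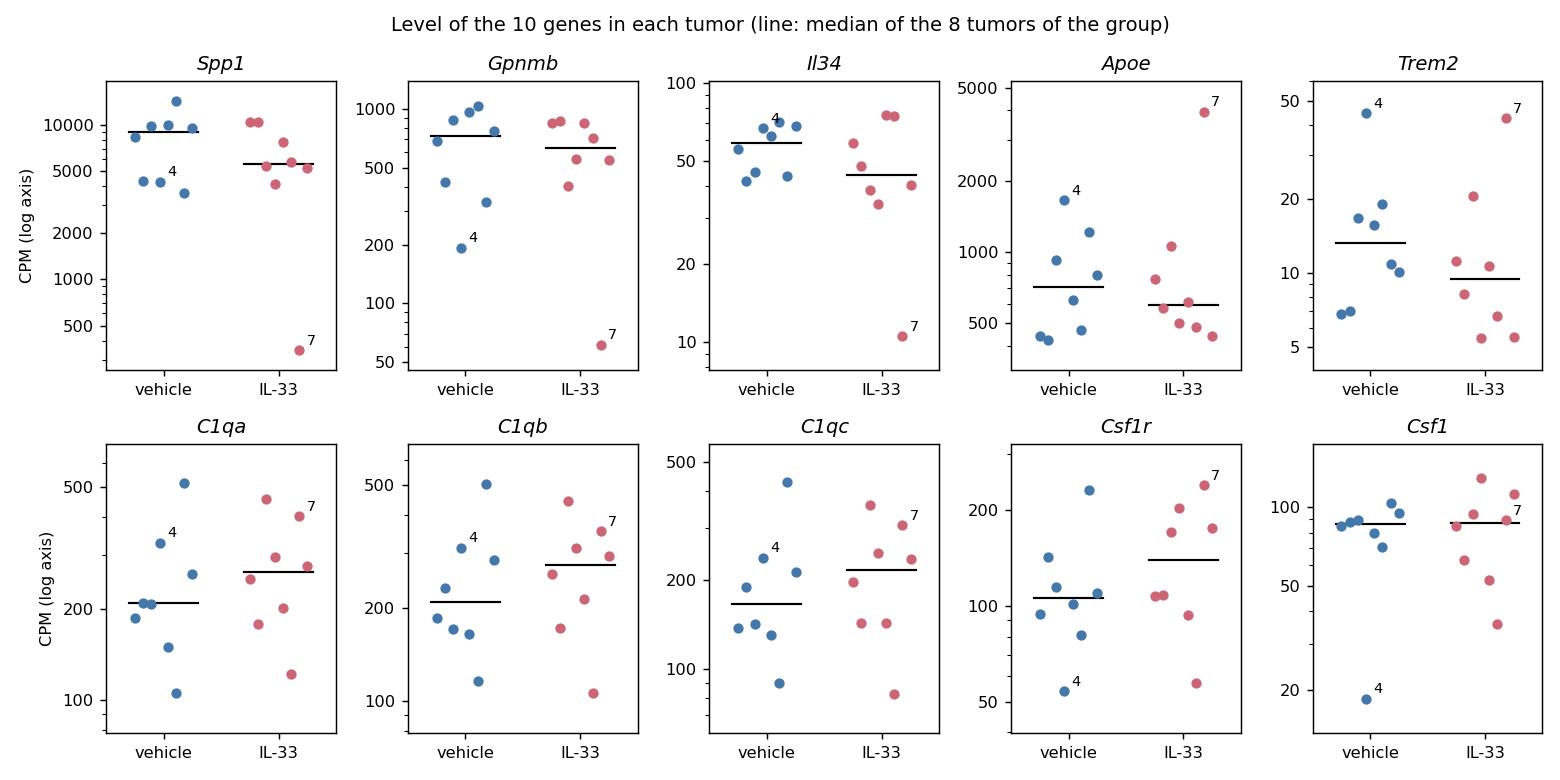
Level of each of the 10 genes in each tumor, in CPM on a log axis whose range differs between panels, with vehicle tumors in blue and IL-33 tumors in red in the order of their replicate numbers, and a line at the group median. Vehicle replicate 4 and IL-33 replicate 7 are marked by their numbers: IL-33 replicate 7 was the lowest tumor for Spp1 (347 CPM), Gpnmb (61.2 CPM) and Il34 (10.5 CPM) and the highest for Apoe (3952 CPM) and Csf1r (239 CPM).

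**Figure D2:**
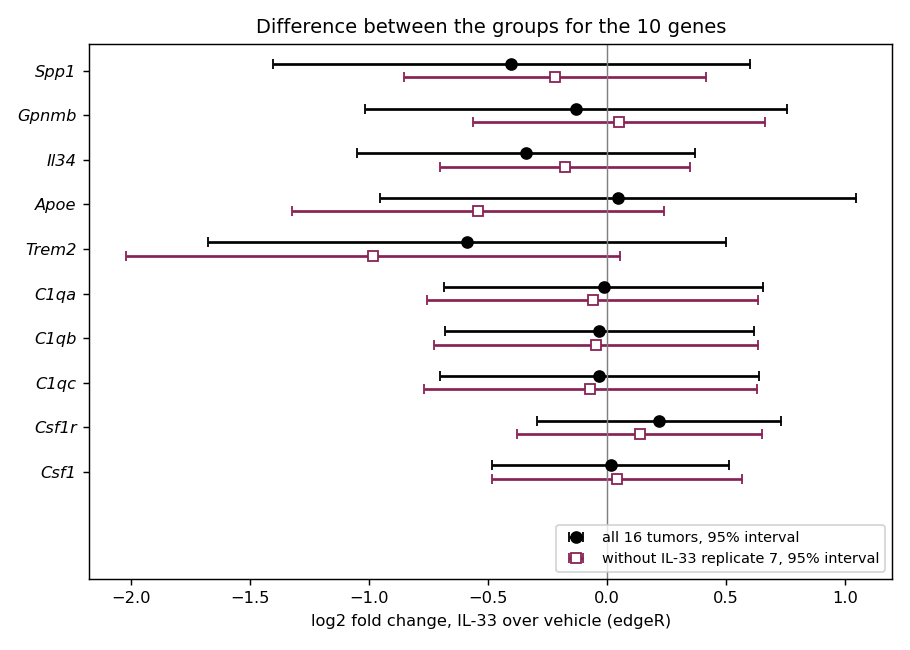
Log2 fold change of the 10 genes, IL-33 over vehicle, from edgeR's fit, with 95% intervals, over all 16 tumors (filled circles) and without IL-33 replicate 7 (open squares). Every interval includes 0, and leaving out the tumor moved Apoe (0.05 to -0.54) and Trem2 (-0.59 to -0.98) the most.

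Csf1r, the receptor, ranged from 53.8 CPM (replicate 4) through a median of 106 to 231 CPM (replicate 7) over the vehicle tumors, and from 57.4 CPM (replicate 6) through 139 to 239 CPM (replicate 7) over the IL-33 tumors. The groups overlapped, and 1 IL-33 tumor lay above all vehicle tumors. The means were 116 ± 53.0 and 144 ± 61.9 CPM (SD, n = 8 each), and the log2 fold change was 0.22 ± 0.24 (SE, edgeR, adjusted p = 0.807). An exact two-sided permutation test of log2(CPM + 0.5) gave p = 0.368. The change was closest to the threshold when vehicle replicate 7, the highest vehicle tumor, was left out (log2 fold change 0.41, unadjusted p = 0.0717 in edgeR). Hmgxb3 overlaps Csf1r on the opposite strand and reached 59.5 CPM, and as the use of strand in counting is not given in the sources used here, reads could be shared between them.

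Csf1, which encodes the first ligand and lies at chr3:107741048-107760469 (GRCm38, minus strand), had nearly equal group means within a wide spread. Vehicle tumors ranged from 18.5 CPM (replicate 4) through a median of 86.4 to 104 CPM, and IL-33 tumors from 36.0 CPM (replicate 6) through 87.3 to 130 CPM (replicate 4). Replicate 4 was far below the other vehicle tumors, which lay at 70.4 CPM or more, and 2 IL-33 tumors lay above all vehicle tumors. The means were 78.7 ± 26.3 and 82.9 ± 31.1 CPM (SD, n = 8 each), and the log2 fold change was 0.01 ± 0.24 (SE, edgeR, adjusted p = 0.993). Without vehicle replicate 4 it was -0.11, still within its error.

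Il34 encodes the second ligand of the receptor and lies at chr8:110741829-110805924 (minus strand). Vehicle tumors ranged from 41.9 through a median of 58.8 to 70.6 CPM, and IL-33 tumors from 10.5 CPM (replicate 7) through 44.0 to 75.4 CPM. The 8 vehicle tumors were close together, while the IL-33 tumors spread to both sides of them, 4 below and 2 above all vehicle tumors. The means were 56.8 ± 11.8 and 47.4 ± 21.7 CPM (SD, n = 8 each). The log2 fold change was -0.34 ± 0.34 (SE, edgeR, adjusted p = 0.771) with all tumors and -0.18 without IL-33 replicate 7.

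The C1q genes encode the A, B and C chains that assemble into complement C1q. They lie side by side on the minus strand of chromosome 4 (GRCm38), C1qb at chr4:136880129-136886187, C1qc at chr4:136889804-136893065 and C1qa at chr4:136895917-136898803, with 3616 bases between C1qb and C1qc, 2851 between C1qc and C1qa, and 18675 bases for the whole cluster. The start regions of C1qb and C1qc are shown because the genes of this cluster moved together from tumor to tumor. Each runs from 250 bases before to 50 bases after the transcript start (RefSeq, GRCm38.p6). Capitals mark matches, on either strand, to GAGGAA (the core of the site of PU.1, a myeloid factor), TGCTGA (an arm of the MAF recognition element), CATGTG (the core of the M-box of the MITF family) and TGAGTCA (the AP-1 site). The tables used held no window for C1qa.
C1qb, chr4:136886151-136886450, minus strand: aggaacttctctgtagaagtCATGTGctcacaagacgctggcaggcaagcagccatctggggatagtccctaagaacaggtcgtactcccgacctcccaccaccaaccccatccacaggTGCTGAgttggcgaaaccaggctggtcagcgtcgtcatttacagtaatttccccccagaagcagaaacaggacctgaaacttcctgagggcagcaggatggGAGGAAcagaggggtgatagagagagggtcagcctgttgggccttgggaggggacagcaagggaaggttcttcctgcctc
C1qc, chr4:136892865-136893164, minus strand: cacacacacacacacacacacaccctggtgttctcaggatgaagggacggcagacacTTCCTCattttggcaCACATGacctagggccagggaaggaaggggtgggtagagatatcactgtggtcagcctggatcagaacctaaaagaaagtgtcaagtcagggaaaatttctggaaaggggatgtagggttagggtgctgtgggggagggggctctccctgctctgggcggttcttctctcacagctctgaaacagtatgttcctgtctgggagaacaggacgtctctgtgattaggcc

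The C1qb window held the PU.1 core, the MAF arm and the M-box core once each, and that of C1qc held the PU.1 core and the M-box core once each, both as the reverse complement. Matches did not overlap each other in the windows shown. Among the 32851 windows of this length in the RefSeq table, 28.3% held GAGGAA, 19.5% TGCTGA, 14.2% CATGTG and 5.2% TGAGTCA on either strand, so such short matches are frequent and are given as a description of the letters only.

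C1qa ranged from 106 CPM (replicate 6) through a median of 208 to 514 CPM (replicate 7) over the vehicle tumors, and from 122 CPM (replicate 6) through 263 to 458 CPM (replicate 3) over the IL-33 tumors, so the IL-33 tumors lay within the range of the vehicle tumors. C1qb ranged from 116 through 209 to 503 CPM and from 106 through 276 to 443 CPM. C1qc ranged from 90.1 through 166 to 428 CPM and from 82.4 through 217 to 358 CPM. The order of the tumors was nearly the same for all chains, with vehicle replicate 7 the highest for each of them. The log2 fold changes were -0.02 ± 0.32 for C1qa, -0.03 ± 0.31 for C1qb and -0.03 ± 0.32 for C1qc (SE, edgeR, adjusted p = 0.993, 0.986 and 0.986). Their sign was not stable, since without scaling by TMM factors the mean CPM after IL-33 was 1.11, 1.09 and 1.09 times that of the vehicle tumors.

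The chains also kept nearly fixed proportions. The ratio of C1qa to C1qb in CPM had a median of 0.987 and ranged from 0.903 to 1.21 over the 16 tumors, and that of C1qb to C1qc ranged from 1.15 to 1.49, while the levels themselves differed up to 5.19-fold between tumors (C1qc). IL-33 replicate 7 and vehicle replicate 4 kept these proportions within the range of the other tumors, except that the ratio of C1qb to C1qc was lowest in IL-33 replicate 7 (1.15, against at least 1.18 elsewhere). The ratio of C1qa to Csf1r was much looser, from 1.30 (vehicle replicate 6) to 6.11 (vehicle replicate 4).

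Apoe, at chr7:19696109-19699188 (minus strand), had 1 very high tumor. Vehicle tumors ranged from 425 through a median of 712 to 1663 CPM (replicate 4), and IL-33 tumors from 441 through 596 to 3952 CPM (replicate 7), with the next IL-33 tumor at 1064 CPM. The group means were 821 ± 439 and 1049 ± 1190 CPM (SD, n = 8 each), and 634 ± 218 CPM over the 7 other IL-33 tumors. The direction turned with 1 tumor: the log2 fold change was 0.05 ± 0.47 (SE, edgeR, adjusted p = 0.987) with all tumors, -0.54 ± 0.37 without IL-33 replicate 7 (adjusted p = 0.964) and 0.46 without vehicle replicate 4.

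Trem2, at chr17:48346401-48354147 (plus strand), was the least abundant of the 10 genes, with between 93 and 743 reads per tumor. Vehicle tumors ranged from 6.82 through a median of 13.3 to 44.5 CPM (replicate 4), and IL-33 tumors from 5.44 through 9.43 to 42.3 CPM (replicate 7). The same libraries that were highest for Apoe in their group were highest for Trem2, and 3 IL-33 tumors lay below all vehicle tumors. The log2 fold change was -0.59 ± 0.52 (SE, edgeR, adjusted p = 0.730). Without IL-33 replicate 7 it was -0.98 ± 0.49 (unadjusted p = 0.0615, adjusted p = 0.964), without vehicle replicate 4 it was 0.06, and with both left out -0.31 (unadjusted p = 0.36). The size and sign thus moved with these libraries. The exact permutation p was 0.483 with all tumors and 0.153 without IL-33 replicate 7.

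Spp1, at chr5:104435118-104441050 (plus strand), was by far the most abundant of the 10 genes. Vehicle tumors ranged from 3633 CPM (replicate 7) through a median of 8932 to 14182 CPM (replicate 6), and IL-33 tumors from 347 CPM (replicate 7) through 5570 to 10427 CPM (replicate 1). IL-33 replicate 7 lay below all other tumors, of which the lowest had 3633 CPM. The means were 7990 ± 3660 and 6172 ± 3336 CPM (SD, n = 8 each), and 7005 ± 2554 CPM over the other 7 IL-33 tumors. The log2 fold change was -0.40 ± 0.48 (SE, edgeR, adjusted p = 0.820) and -0.22 ± 0.30 without IL-33 replicate 7, and the exact permutation test gave p = 0.357 and 0.711.

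Gpnmb, at chr6:49036546-49070929 (plus strand), followed Spp1. Vehicle tumors ranged from 194 CPM (replicate 4) through a median of 729 to 1035 CPM (replicate 6), and IL-33 tumors from 61.2 CPM (replicate 7) through 634 to 865 CPM (replicate 2). As for Spp1, vehicle replicate 6 was the highest and IL-33 replicate 7 the lowest of all tumors. The log2 fold change was -0.13 ± 0.42 (SE, edgeR, adjusted p = 0.954) and 0.05 ± 0.29 without IL-33 replicate 7. The start regions of Spp1 and Gpnmb are shown, marked as above, because this pair also moved together.
Spp1, chr5:104434861-104435160, plus strand: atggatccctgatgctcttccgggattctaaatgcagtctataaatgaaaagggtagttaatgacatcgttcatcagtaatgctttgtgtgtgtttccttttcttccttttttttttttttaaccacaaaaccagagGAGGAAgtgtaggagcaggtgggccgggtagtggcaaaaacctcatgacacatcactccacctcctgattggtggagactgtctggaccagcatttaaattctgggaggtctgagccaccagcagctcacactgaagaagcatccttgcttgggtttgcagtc
Gpnmb, chr6:49036268-49036567, plus strand: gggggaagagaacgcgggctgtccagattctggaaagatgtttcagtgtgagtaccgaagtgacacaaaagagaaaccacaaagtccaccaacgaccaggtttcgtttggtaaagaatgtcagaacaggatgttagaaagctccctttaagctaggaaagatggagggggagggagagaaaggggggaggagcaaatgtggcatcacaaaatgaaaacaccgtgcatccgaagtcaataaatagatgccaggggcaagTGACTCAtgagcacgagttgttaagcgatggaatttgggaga

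The Spp1 window held GAGGAA once and none of the other motifs, and a second RefSeq window for Spp1 held none of them. The Gpnmb window held the AP-1 motif once, as its reverse complement, and none of the others. Among the windows shown, GAGGAA was in those of Spp1, C1qb and C1qc, and the Spp1 and Gpnmb windows had no matched motif in common. GAGGAA was also in windows not shown, that of Trem2 and windows 1 and 3 of Apoe, so it did not single out Spp1 and the C1q genes.

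Set side by side per kilobase of exon, Spp1 was the most abundant gene, with 4297 CPM per kb over the 16 tumors, followed by Apoe (437), C1qa (249), C1qb (237), C1qc (106), Gpnmb (97.2), Il34 (26.6), Csf1r (22.5), Csf1 (15.3) and Trem2 (3.05 CPM per kb). Spp1 was above Apoe in 15 of 16 tumors, with a geometric mean ratio of 9.95, and C1qb was above C1qc in 16 of 16 (2.25). Csf1r was above its ligand Csf1 in 16 of 16 (1.46), and Csf1 above Trem2 in 15 of 16 (5.78). Gpnmb was above Il34 in 15 of 16 (3.34) and Apoe above C1qa in 13 of 16 (1.55). Neighbours that did not keep their order were C1qa and C1qb (9 of 16 tumors), C1qc and Gpnmb (7 of 16) and Il34 and Csf1r (10 of 16). The ratio of Il34 to Csf1 in CPM ranged from 0.117 in IL-33 replicate 7 to 3.61 in vehicle replicate 4. In CPM, neither ligand was above the other in all tumors of a group. Per kilobase of exon, Il34 was above Csf1 in every vehicle tumor, and below it only in IL-33 replicates 4, 7 and 8.

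Levels differed between tumors by between 4.44-fold (Csf1r) and 40.9-fold (Spp1), or 2.20-fold (Il34) and 8.18-fold (Trem2) without IL-33 replicate 7, and the 10 genes did not vary as 1 set. Over the 16 tumors, Csf1 went with its receptor (Pearson's r with Csf1r of log2(CPM + 0.5) = 0.81, Spearman's rho = 0.88, permutation p = 2e-05, adjusted over 9 relations 0.00018), while Il34, the other ligand, went against it (r = -0.76, rho = -0.88, p = 4e-05, adjusted 0.00018). For Csf1 the r was 0.77 over the vehicle tumors, 0.89 over the IL-33 tumors, 0.85 without IL-33 replicate 7 and 0.87 when vehicle replicate 7 was left out with it, these being the tumors farthest from the median of Csf1r. The same values for Il34 were -0.74, -0.82, -0.84 and -0.86. Both relations thus held within each group and without replicate 7 of both groups. Without vehicle replicate 4, the lowest tumor for both Csf1 and Csf1r, r was 0.79 for Csf1 and -0.78 for Il34. Leaving out IL-33 replicate 6 as well gave 0.69 for Csf1. With CPM scaled by TMM factors, r over the 16 tumors was 0.67 for Csf1 and -0.76 for Il34.

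The C1q genes also went with Csf1r, with r = 0.73 for C1qc (rho = 0.70, permutation p = 0.00128, adjusted 0.00384), 0.69 for C1qb (rho = 0.64, p = 0.00377, adjusted 0.00848) and 0.66 for C1qa (rho = 0.67, p = 0.00531, adjusted 0.00956). Without the 2 tumors farthest from the median these were 0.61, 0.56 and 0.50. Within groups they were 0.52, 0.45 and 0.43 over the vehicle tumors and 0.92, 0.89 and 0.89 over the IL-33 tumors, a difference that was not tested. Without vehicle replicate 4, where C1q was high and Csf1r lowest, the pooled values were 0.92, 0.88 and 0.88. Spp1 went against Csf1r (r = -0.54, rho = -0.54, permutation p = 0.0231, adjusted 0.0346), but the relation rested on IL-33 replicate 7 and vehicle replicate 7, without which r was -0.24. With all 16 tumors no relation with Csf1r passed for Gpnmb (r = -0.41, rho = -0.46, permutation p = 0.118, adjusted 0.152), Apoe (r = 0.29, rho = 0.23, p = 0.278, adjusted 0.313) or Trem2 (r = -0.10, rho = -0.11, p = 0.718, adjusted 0.718). Without vehicle replicate 4 the relations of Gpnmb (r = -0.71, adjusted permutation p = 0.00099) and Apoe (r = 0.56, adjusted permutation p = 0.0307) did pass, and without IL-33 replicate 7 they were -0.14 and -0.028 (adjusted permutation p = 0.693 and 0.923).

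**Figure D3:**
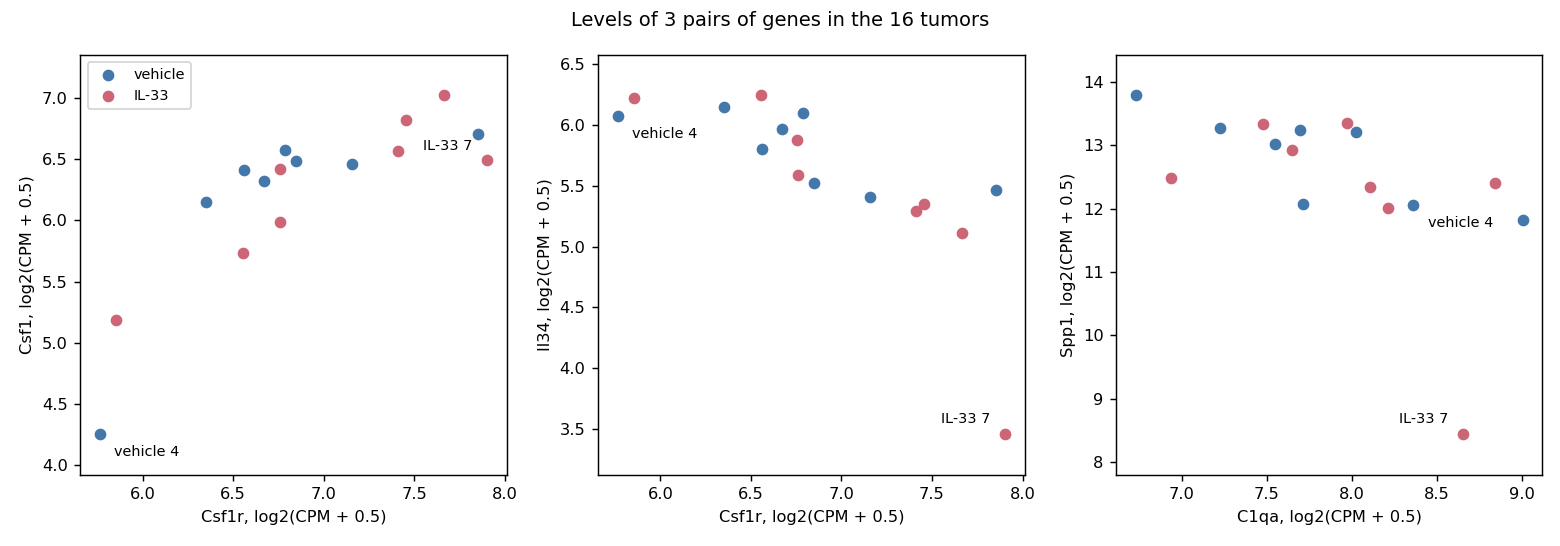
Levels of Csf1 and of Il34 against Csf1r, and of Spp1 against C1qa, each as log2(CPM + 0.5) in the 16 tumors, with vehicle tumors in blue and IL-33 tumors in red. Csf1 lay higher and Il34 lower where Csf1r was higher (r = 0.81 and -0.76), and Spp1 lay lower where C1qa was higher (r = -0.58), with IL-33 replicate 7 far below the others for Il34 and Spp1.

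Correlations of Spp1 with genes outside the 10 also moved with 1 library. The median r of 8 fibroblast genes with Spp1 was -0.52 over all tumors and 0.024 without IL-33 replicate 7. No share over pairs of all genes is given here, so the following count has no background beside it. Among the 45 pairs of the 10 genes, 26 had an adjusted permutation p under 0.05 for Pearson's r. The closest were C1qb with C1qc (r = 0.99, rho = 0.99), C1qa with C1qc (r = 0.98, rho = 0.98), C1qa with C1qb (r = 0.98, rho = 0.98) and Spp1 with Gpnmb (r = 0.94, rho = 0.91), each with a permutation p of 1e-05, the smallest that 100000 resamples can give, and an adjusted p of 9e-05. The relation of Spp1 with Gpnmb held within the vehicle group (r = 0.91), within the IL-33 treatment group (0.98) and without IL-33 replicate 7 and vehicle replicate 4 (0.90). Trem2 went with Apoe (r = 0.82, rho = 0.74, permutation p = 0.00014, adjusted 0.0009), and r was 0.75 without IL-33 replicate 7 and 0.59 when vehicle replicate 4 was left out as well.

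Spp1 and Gpnmb, on one side, and the C1q genes, on the other, ran in opposite directions. Gpnmb and C1qa had r = -0.66 and rho = -0.81 (permutation p = 0.00317, adjusted 0.0128), with r = -0.76 in the vehicle group, -0.62 in the IL-33 treatment group and -0.66 without vehicle replicates 6 and 7, the tumors farthest from the median of C1qa. Spp1 and C1qa had r = -0.58 and rho = -0.74 (permutation p = 0.0129, adjusted 0.0306), with -0.82 and -0.51 within groups and -0.53 without vehicle replicates 6 and 7. Without IL-33 replicate 7 the values were -0.71 and -0.65. Gpnmb had r = -0.60 with C1qb and -0.63 with C1qc (adjusted permutation p = 0.0306 and 0.0194). Spp1 had r = -0.55 with C1qc (adjusted permutation p = 0.0413), but its r with C1qb, -0.51, did not pass (adjusted permutation p = 0.063). Over the IL-33 tumors r of Spp1 was -0.40 with C1qb and -0.46 with C1qc. By contrast, the negative relation of Spp1 with Apoe (r = -0.72, rho = -0.28, permutation p = 0.0118, adjusted 0.0306) rested on IL-33 replicate 7 and vehicle replicate 4, without which r was -0.07. The positive relation of Spp1 with Il34 (r = 0.87, rho = 0.56, permutation p = 0.00224, adjusted 0.0101) fell to r = 0.41 without IL-33 replicates 4 and 7.

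**Figure D4:**
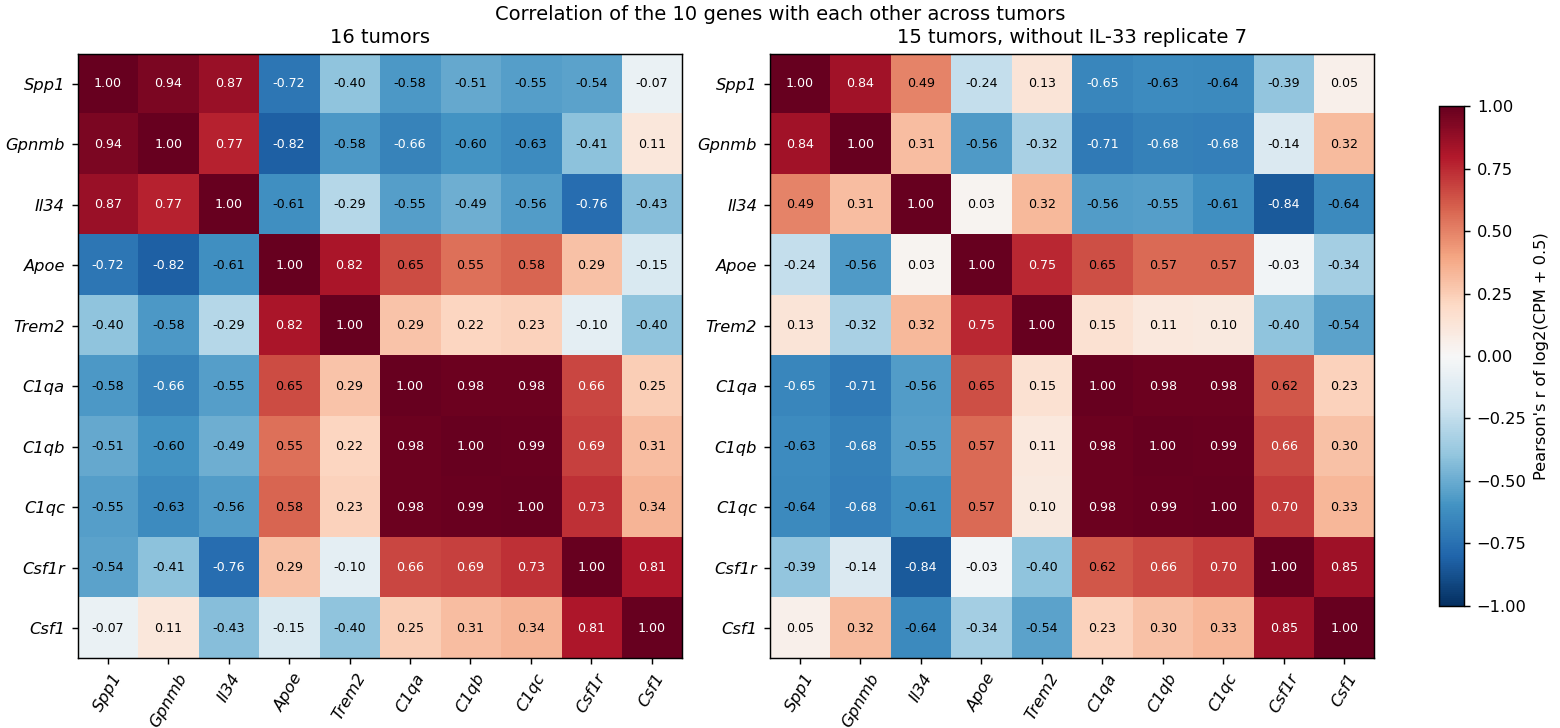
Pearson's r of log2(CPM + 0.5) between the 10 genes over all 16 tumors (left) and over 15 tumors without IL-33 replicate 7 (right), from blue (-1) to red (1). In both panels the C1q genes form a block (r of 0.98 to 0.99), Spp1 and Gpnmb a pair (0.94 and 0.84), Csf1r and Csf1 another (0.81 and 0.85), and Il34 lies opposite to Csf1r (-0.76 and -0.84).

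Genes that mark macrophages were used to check how far Csf1r and Spp1 can be read as macrophage genes here. The others of the 10 genes were not set against these markers. All 12 listed (Adgre1, Cd68, Itgam, Fcgr1, Mertk, Cd14, Lyz2, Msr1, Mrc1, Cd163, Maf and Spi1) were present, with a summed level between 902 and 2004 CPM in vehicle tumors and between 534 and 2112 CPM in IL-33 tumors. Of the 12, 11 had a positive r with Csf1r (median 0.61) and 4 with Spp1 (median -0.14). Without IL-33 replicate 7 the counts were 9 and 5. Of 8 fibroblast genes, 8 had a positive r with Csf1r (median 0.58) and 0 with Spp1 (median -0.52), and without that tumor 8 and 4. For 6 dendritic cell genes the counts were 6 and 1, and for 6 neutrophil genes 0 and 3. A positive r with Csf1r was thus not particular to macrophage genes, and the share over all genes is not given here. Of the 12 macrophage genes, F4/80 (Adgre1) had the highest r with Csf1r, 0.87, and had r = -0.14 with Spp1. The lowest r with Csf1r was that of Cd14 (-0.35), followed by Mrc1 (0.015) and Cd163 (0.17). Without IL-33 replicate 7, r with Spp1 ranged from -0.66 (Spi1) to 0.66 (Mrc1). Spp1, at 4297 CPM per kb, also stood far above the most abundant gene of the list, Lyz2, at 290 CPM per kb. Which cells of the tumor Spp1 came from was not tested.

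For gene lists, passing means an unadjusted p under 0.05 between the groups in edgeR, which no list gene kept after adjustment over all genes tested. In the macrophage list 0 of 12 genes passed, and the median log2 fold change was 0.015. Its most abundant genes, Lyz2 (lysozyme) and Mrc1 (the mannose receptor CD206), had log2 fold changes of -0.21 ± 0.40 and -0.40 ± 0.38 (SE). Without IL-33 replicate 7, Itgam (CD11b) alone passed that threshold, with a log2 fold change of 0.74 (unadjusted p = 0.0446, adjusted p = 0.964 in edgeR). Of 11 genes that carry signals from TREM2 or CSF1R, such as the adaptor Tyrobp and the kinase Syk, 0 passed, with a median of 0.25, and all 11 had a positive r with Csf1r (median 0.82), of which Grb2 and Cbl were the most abundant. Over all genes tested the median log2 fold change was 0.06.

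Among 15 genes of lipid handling, 1 passed at an unadjusted p under 0.05, the fatty acid transporter Cd36, which was higher after IL-33 (log2 fold change 1.49 ± 0.64, unadjusted p = 0.0315, adjusted p = 0.418 in edgeR). It had 409 CPM in IL-33 replicate 7 and 28.2 ± 19.3 CPM over the other 7 IL-33 tumors, against 23.1 ± 8.50 CPM in the vehicle group, and the log2 fold change was 0.30 without that tumor. The same tumor held 778 CPM of 4 adipose genes, against at most 51.4 CPM elsewhere, and their part in the Cd36 level was not tested. The list's median was 0.15, and its most abundant genes were Npc2 and Plin2. Among 15 genes of lysosomes and tetraspanins, 0 passed, with a median of -0.14. Their most abundant genes, the cathepsins Ctsl and Ctsb, had log2 fold changes of -0.38 ± 0.27 and -0.14 ± 0.15, and Ctsl had r = 0.94 with Spp1 over the 16 tumors (0.78 without IL-33 replicate 7).

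A list of 9 complement genes held partners of C1q in the classical pathway, and also Masp1 and Masp2 of the lectin pathway. Of the 9, 1 passed as higher, C1rb (unadjusted p = 0.0273, adjusted p = 0.418 in edgeR). At means of 0.0077 and 0.098 CPM it had too few reads for a fold. C3 and C1s1 were the most abundant. C3 had 3512 CPM in IL-33 replicate 7 and a mean of 215 ± 106 CPM over the other 7 IL-33 tumors, and 248 ± 82.3 CPM in the vehicle group. The median log2 fold change of the list was 0.46 with that tumor and -0.22 without it. Without it, Serping1, the inhibitor of C1r and C1s, was lower (log2 fold change -0.82, unadjusted p = 0.0267, adjusted p = 0.964 in edgeR). The C1q genes did not stand apart in that tumor, with 402 CPM of C1qa against up to 514 CPM in the others.

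Of 8 osteopontin receptor genes, 0 passed with all tumors (median 0.10), and Itgb1 and Cd44, the most abundant, had log2 fold changes of 0.0041 ± 0.19 and -0.12 ± 0.22. Without IL-33 replicate 7, Itgb5 was lower (-0.32, unadjusted p = 0.0260, adjusted p = 0.964). Of 5 ApoE receptor genes, Sorl1 was higher (0.64 ± 0.29, unadjusted p = 0.0436, adjusted p = 0.430 in edgeR), and its log2 fold change without IL-33 replicate 7 was 0.59 (unadjusted p = 0.0732). Lrp1 and Scarb1 were the most abundant of this list. A list of other colony-stimulating factors and their receptors also held Ptprz1 and Sdc1. Of its 9 tested genes, 1 was higher, Csf2rb, the shared beta chain of the GM-CSF receptor (0.57 ± 0.25, unadjusted p = 0.0359, adjusted p = 0.420 in edgeR). Its level was 51.7 ± 29.2 CPM against 32.0 ± 12.3 CPM (SD, n = 8 each). Sdc1 was the most abundant gene of the list. Csf2rb had 112 CPM in IL-33 replicate 7 and 43.1 ± 17.4 CPM over the other 7 IL-33 tumors, and did not pass without that tumor (log2 fold change 0.39, unadjusted p = 0.101).

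Markers of other cells that the tumors could hold were measured beside these results. Osteoclast genes (0 of 7 tested passed) and melanocyte genes (0 of 3), which share Spp1 or Gpnmb as markers, summed to between 58.7 and 172 CPM and between 1.91 and 6.33 CPM over the tumors, and the pigment genes Tyr and Tyrp1 were at 0 in all 16. Fibroblast genes (0 of 8) summed to 14613 CPM in IL-33 replicate 7 and to at most 6917 CPM elsewhere. Of 6 epithelial genes, Epcam, Krt18 and Cdh1 passed as higher, each at its peak in IL-33 replicate 7. Without that tumor Krt18 passed in the other direction, with a log2 fold change of -2.27 (unadjusted p = 0.00531, adjusted p = 0.964 in edgeR), and Epcam and Cdh1 did not pass. Krt8, which carcinoma cells express, ran against Csf1r over the tumors (r = -0.93, and -0.92 without that tumor), as did Krt19 (-0.51 and -0.62). The other 4 had a positive r with Csf1r, of which Epcam (0.58 and 0.59) and Cdh1 (0.64 and 0.73) kept it without that tumor, and Krt18 and Krt7 did not. All 6 uterus and oviduct genes and all 6 ovary genes passed as higher with all tumors, as did Lep of the adipose list and Gata6 of 5 peritoneal macrophage genes (61.5 CPM in IL-33 replicate 7). Of these genes 0 passed once IL-33 replicate 7 was left out, and Wnt7a, Fshr, Cyp19a1 and Foxl2 had too few reads to be tested. Alb and Fgb of the liver list passed as lower, at group means of 2.93 CPM or less. Their vehicle levels were uneven, at 2.93 ± 8.06 and 0.42 ± 1.19 CPM (SD, n = 8). The liver genes summed to a median of 0.604 and at most 34.3 CPM over the vehicle tumors. Without IL-33 replicate 7, 3 liver genes passed as lower.

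Monocyte, dendritic cell and neutrophil genes (6 each) had 0 genes past the unadjusted threshold with all tumors, and the monocyte gene Ly6c2 was higher without IL-33 replicate 7 (log2 fold change 1.68, unadjusted p = 0.0304, adjusted p = 0.964 in edgeR). Vehicle replicate 4, which was highest for Trem2 and lowest for Csf1 and Csf1r, had the largest summed level of neutrophil genes (455 CPM, against at most 160 CPM in IL-33 tumors) and of epithelial genes (1547 CPM). The part of these cells in the levels of the 10 genes was not tested.

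The genes most like 3 of the 10 in their pattern over the 16 tumors were taken from 13109 genes with a mean of at least 1 CPM. Those closest to Csf1r were Icam1 (r = 0.98), Sgk3 (0.98), Tnfsf10 (0.97), Pla2g15 (0.97) and Ripk2 (0.97), and without IL-33 replicate 7 their r was between 0.96 and 0.98. Those closest to Csf1 were Det1 (0.98), Cstf3 (0.98), Srsf10 (0.97), Dph2 (0.97) and BC005537 (0.97), with r between 0.97 and 0.98 without that tumor as well. Those closest to Spp1 were Pax9 (0.98), Anks1b (0.97), Cntn3 (0.97), Ptgs1 (0.96) and Rarg (0.96), and without that tumor their r dropped to between 0.82 and 0.90. These are the highest of many values and are given as a description.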

How the data were processed

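RNA-seq of poly(A)-selected RNA was analysed from 8 vehicle and 8 IL-33 tumors. The deposited values were raw counts of reads per gene, made by the authors without normalization. The submitters' processing notes list HISAT2, featureCounts and mm10, and the annotation release and use of strand are not given in the sources used here. Groups and replicate numbers came from the labels. Symbols and coordinates came from GENCODE M21 (22255 of 22298 identifiers named, 52 sharing a symbol), and start regions from RefSeq (GRCm38.p6).

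Genes were kept where the 16 tumors together held 10 counts or more, and the 16817 kept were tested with edgeR 4.0.16 (R 4.3.3), TMM normalization, glmQLFTest and Benjamini-Hochberg adjustment over all of them. Intervals are 95%, from the quasi-likelihood standard error. Levels of single genes, as log2(CPM + 0.5), were compared by an exact permutation test (two-sided, 12870 assignments), and correlations by 100000 resamples. The pairs of the 10 genes were added after their values had been seen. The genes and lists were chosen with earlier results of these data known, and 2 genes of the lists are not reported here. Named genes are the 10 members, list genes at an unadjusted p under 0.05 (at most 3 per list) with the 2 most abundant of each pathway list, and the 5 genes most like Csf1r, Spp1 and Csf1; others named by their values were chosen after these were seen. Alternatives were DESeq2 1.42.0, upper-quartile normalization, filterByExpr, no filter, robust fitting, limma 3.58.1 voom with quality weights, a replicate block, and each of the 16 tumors left out. Tests were tried on simulated data with known changes.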

Additional observations from a re-analysis of the deposited data

Results flagged for a closer look

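Of the 20 combinations of a gene and a group, 5 held a tumor far from the other 7. For independent, normally distributed values the rule marks about 1 group in 20 by chance. CPM were not shown to be so distributed and several of the genes moved together, so the count cannot be set against that rate. Trem2 was highest in vehicle replicate 4 (44.5 CPM, next highest 19.0) and, in the other group, in IL-33 replicate 7 (42.3 CPM, next highest 20.5). Apoe was highest in IL-33 replicate 7 (3952 CPM, next highest 1064). Csf1 was lowest in vehicle replicate 4 (18.5 CPM, next lowest 70.4). C1qc was highest in vehicle replicate 7 (428 CPM, next highest 238). Thus 4 of the 5 concern the libraries with the lowest and highest TMM scaling factors.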

How the results depend on the processing

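No gene of the 10 reached an unadjusted p under 0.05 in any of 70 fits by other settings over all tumors, 160 fits without 1 tumor or 50 alternative permutation tests, and direction and side of the threshold were kept in 61, 133 and 47 of these. Trem2 did with DESeq2 without IL-33 replicate 7, a fit added after seeing the data (-1.02, unadjusted p = 0.0354, adjusted p = 0.993). With limma voom and quality weights the log2 fold change was -0.041 for Apoe, 0.34 for C1qa, 0.31 for C1qb, 0.29 for C1qc and -0.091 for Csf1. With the replicate block it was 0.10 for C1qa, 0.049 for C1qb, 0.045 for C1qc and -0.018 for Csf1. The replicate numbers are not known to pair tumors: correlations of same-numbered tumors ran from -0.318 to 0.351, and 1 of 8 tumors correlated best with its own number. Without vehicle replicate 4 and IL-33 replicate 7, tried after seeing the data, it was -0.31 for Trem2, -0.10 for Apoe, 0.15 for C1qa, 0.14 for C1qb, 0.10 for C1qc and -0.088 for Csf1, and with DESeq2 without IL-33 replicate 7 it was 0.047 for Gpnmb and -0.57 for Apoe. Leaving out 1 tumor gave ranges of -0.98 to 0.059 for Trem2, -0.24 to 0.049 for Gpnmb, -0.54 to 0.46 for Apoe, -0.18 to 0.20 for C1qa, -0.19 to 0.16 for C1qb, -0.19 to 0.18 for C1qc and -0.11 to 0.11 for Csf1.

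The difference in mean log2(CPM + 0.5) was -0.025 for Apoe with TMM-scaled CPM, and -0.27 for Apoe and 0.19 for Gpnmb without IL-33 replicate 7. For r with Csf1r, leaving out IL-33 replicate 7 or vehicle replicate 4 gave -0.39 and -0.66 for Spp1, -0.14 and -0.71 for Gpnmb, -0.028 and 0.56 for Apoe, and -0.40 and 0.21 for Trem2. With TMM-scaled CPM, Gpnmb had r = -0.60 (adjusted permutation p = 0.0164).

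The counts of genes at an unadjusted p under 0.05, 1680 higher and 196 lower, became 424 higher with DESeq2, 499 higher with filterByExpr, 522 and 444 with limma voom, 246 and 72 with the replicate block, 286 and 392 with DESeq2 without IL-33 replicate 7, and 330 and 329 without that tumor and vehicle replicate 4. Leaving out 1 tumor gave 289 to 1902 higher and 111 to 362 lower. Of the list genes, 21 higher and 2 lower became 2 and 6 without IL-33 replicate 7, and 3 and 1 with DESeq2. The causes were not tested. With 8 tumors a group, the 95% intervals still included changes between 0.31-fold (Trem2) and 2.06-fold (Apoe), and the effect of depth was not tested.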
